A study of Mus musculus with 6 samples.

Results

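The signaling lymphocyte activation molecule (SLAM) family genes Slamf1, Slamf6, Slamf7, Cd84, Ly9 and Cd48 were examined in germinal center (GC) B cells with and without the IL-21 receptor. These 6 genes were taken by name from the 27179 genes of the series' count table. The table held RNA-seq counts for splenic GC B cells of C57BL/6 wild-type (WT) mice and of Il21r-/- mice, which lack a functional receptor for the T cell cytokine IL-21, on days 7, 10 and 14 after immunization, with 1 library for each genotype on each day. All animals had been given the T cell-dependent antigen NP-KLH in alum, and the sorted cells were NP-binding, IgG1+ and B220+ and lacked CD38, CD138, IgM, IgD and Gr1. The study's methods describe irradiated Ly5.1 hosts reconstituted with WT or Il21r-/- bone marrow for its experiments apart from a BrdU/EdU time course, so that other hematopoietic cells derived from the donor marrow would lack the receptor as well. The labels put an independent mouse behind each sample, whereas the study's text describes several animals per genotype, on day 7 too. These sources differ on whether animals were pooled into a library, and the tests below measure only the spread between these libraries. Libraries held between 21353438 and 27435124 counts on genes.

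SLAM family proteins are surface receptors of hematopoietic cells, most of which bind the same receptor on a neighboring cell. SLAMF1, SLAMF6 (Ly108), SLAMF7 (CRACC), CD84 and LY9 bind themselves in this way, whereas CD48 is a lipid-anchored protein that serves as the ligand of CD2 and of CD244. Tyrosine motifs in the tails of most members recruit the small adaptors SAP and EAT-2 or inhibitory phosphatases, and the family is best known in the GC for sustaining contact between B cells and T follicular helper cells, in which SAP is required.

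All 6 members lie side by side on mouse chromosome 1 (GRCm38), within 360.3 kb, and no other gene of the count table starts and ends between the outer members. Along the chromosome the order was Ly9 (Entrez 17085, chr1:171588613-171607410, minus strand), Slamf7 (75345, chr1:171632403-171653037, minus strand), Cd48 (12506, chr1:171681245-171705258), Slamf1 (27218, chr1:171767131-171801184), Cd84 (12523, chr1:171839697-171890718) and Slamf6 (30925, chr1:171917458-171948958), the last 4 on the plus strand. Sequences upstream of the transcription start were held for 5 of the 6 members (RefSeq, GRCm38.p6; not for Ly9). The start is that of the transcript in the RefSeq table, which for Cd48 and Slamf7 lies inside the gene span given above, so that these windows are within the annotated gene, while the ends of the Slamf6 and Slamf1 windows reach the first bases of their spans. The 250 bases before the start are shown for the 3 members with the highest genotype effect in Il21r-/- cells and for Slamf1, the member that went the other way, each 5′ to 3′ on the gene's strand with motif matches in capitals.
Cd84 (chr1:171839447-171839696): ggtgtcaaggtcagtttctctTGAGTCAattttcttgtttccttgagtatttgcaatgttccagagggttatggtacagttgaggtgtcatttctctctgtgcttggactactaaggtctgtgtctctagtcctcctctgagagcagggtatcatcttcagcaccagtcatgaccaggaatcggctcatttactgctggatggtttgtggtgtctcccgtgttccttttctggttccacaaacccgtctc
Cd48 (chr1:171681742-171681991): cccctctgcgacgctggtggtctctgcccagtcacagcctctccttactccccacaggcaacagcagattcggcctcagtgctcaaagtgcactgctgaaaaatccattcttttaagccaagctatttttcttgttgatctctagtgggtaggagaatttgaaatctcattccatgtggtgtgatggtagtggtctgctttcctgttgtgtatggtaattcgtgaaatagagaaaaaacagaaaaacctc
Slamf6 (chr1:171917212-171917461): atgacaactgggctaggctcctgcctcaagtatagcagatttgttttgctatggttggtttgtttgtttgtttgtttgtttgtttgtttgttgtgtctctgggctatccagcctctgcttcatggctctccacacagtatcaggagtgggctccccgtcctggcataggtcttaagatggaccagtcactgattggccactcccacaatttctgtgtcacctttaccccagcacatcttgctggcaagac
Slamf1 (chr1:171766882-171767131): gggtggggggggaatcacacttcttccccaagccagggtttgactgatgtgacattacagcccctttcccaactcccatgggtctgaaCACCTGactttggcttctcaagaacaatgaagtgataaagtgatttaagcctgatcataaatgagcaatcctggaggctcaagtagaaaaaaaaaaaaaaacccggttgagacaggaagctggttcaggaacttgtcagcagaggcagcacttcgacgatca
Searches on both strands for 9 motifs found a single match in each of 3 windows. The AP-1 letters TGANTCA occurred in Cd84, at position -229 from the start, and in Slamf7 (window chr1:171649000-171649249), at position -42, compared with 6.73% of the 32536 RefSeq windows of this length. The E-box CAGGTG, the letters bound by E2A, occurred on the opposite strand in Slamf1, at position -162, compared with 17.29% of windows. The windows of Cd48 and Slamf6 held none of the 9. The other motifs were STAT (TTCNNNGAA, 7.04% of windows), CRE (TGACGTCA, 1.56%), EGR (GCGTGGGCG, 0.54%), PU.1 (GAGGAAGT, 2.45%), IRF (2.98%), NF-kB (3.92%) and the TATA box (TATAAA, 12.31%), none of which matched in the 5 windows. A match describes the letters only, and matches in the same place for different motifs did not arise.

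Transcripts of all 6 members were present in every library and all 6 passed the filter on low values, as did 11005 of the 27179 genes. The fewest counts were 582, for Cd84 in the WT day 14 library, and the most were 7461, for Cd48 in the Il21r-/- day 14 library. Expressed per kilobase of transcript (RPKM), Cd48 was by far the highest, with a mean of 212 ± 44.0 (SD, n = 6 libraries), above 95.2% of the genes tested. Slamf7 followed at 55.7 ± 5.55 and Ly9 at 48.6 ± 5.76. The ranges of these neighbors overlapped, at 49.1 to 63.1 for Slamf7 and 43.7 to 58.0 for Ly9, although Slamf7 was the higher in all 6 libraries. Slamf1 at 29.8 ± 5.66 and Slamf6 at 26.5 ± 4.37 also had overlapping ranges. Slamf1 was above Slamf6 in every WT library, whereas in Il21r-/- libraries this held only on day 10. Cd84 was the lowest member at 5.81 ± 1.46 RPKM, above only 36.7% of the genes tested, and its range of 4.25 to 8.25 lay below those of all other members. Without TMM scaling the mean RPKM of each member moved by less than its SD and the order was kept.

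Loss of the IL-21 receptor was accompanied by higher Slamf6, Cd84, Cd48 and Ly9 transcript when the libraries of a day were compared with each other, from 1.19-fold for Ly9 to 1.39-fold for Cd84, while Slamf1 was higher in WT by 1.16-fold without passing the test. The question was whether receptor-deficient GC B cells differ in their SLAM family transcripts over the 3 days. In a model with a linear term for day, no member passed an adjusted p of 0.05 (0 of 6), compared with 5.92% of all genes tested, and 4 had an unadjusted p under 0.05, compared with 21.4% of all genes tested (edgeR quasi-likelihood test, Benjamini-Hochberg adjustment). With day as a block, which compares the libraries of a day, 4 of the 6 were called, all higher in Il21r-/- cells, where 22.9% of all genes tested were called and 13.6% were called higher in Il21r-/-. DESeq2's Wald test with the linear term called 2 members and 8.64% of all genes tested. Levels below are counts scaled to library size (CPM) after TMM normalization, and log2 fold changes are WT over Il21r-/-, so that negative values mark higher transcript in Il21r-/- cells.

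Cd84, a self-binding receptor of B and T follicular helper cells, measured 37.6, 26.6 and 27.3 CPM in WT and 51.6, 38.2 and 36.9 CPM in Il21r-/- cells on days 7, 10 and 14. Il21r-/- was the higher on each day, at 137%, 144% and 136% of WT, although the lowest Il21r-/- library lay just under the highest WT library. The log2 fold change was -0.47 ± 0.13 (SE; adjusted p = 0.0732) with the linear term and -0.47 ± 0.10 (adjusted p = 0.00051) with day as a block. Slamf6, the self-binding receptor also called Ly108, measured 59.8, 55.2 and 53.9 CPM in WT and 82.3, 67.5 and 69.5 CPM in Il21r-/- cells. Every Il21r-/- library was above every WT library. Its log2 fold change was -0.38 ± 0.10 (adjusted p = 0.0678) with the linear term and -0.37 ± 0.09 (adjusted p = 0.00177) with the block.

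Cd48, the ligand of CD2 and CD244, measured 231, 169 and 219.9 CPM in WT and 299.1, 232 and 299.5 CPM in Il21r-/- cells. The groups did not overlap, and within both genotypes day 10 was the lowest. The log2 fold change was -0.42 ± 0.15 (adjusted p = 0.153) with the linear term and -0.43 ± 0.08 (adjusted p = 8.79e-05) with the block, which had the smallest p of the 6 members. Ly9, a self-binding receptor known to restrain innate-like lymphocytes, measured 109, 108 and 107 CPM in WT and 129, 142 and 117 CPM in Il21r-/- cells. WT libraries were nearly level (SD 1.25 CPM) and lay below every Il21r-/- library (SD 12.4 CPM). Its log2 fold change was -0.26 ± 0.10 (adjusted p = 0.175) with the linear term and -0.26 ± 0.08 (adjusted p = 0.0224) with the block.

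Slamf7, a self-binding receptor that is abundant on plasma cells, measured 198, 230.5 and 195 CPM in WT and 237, 251 and 218 CPM in Il21r-/- cells. Il21r-/- stood at 119.8%, 109% and 112% of WT, but the groups overlapped and the difference was not called with either model (log2 fold change -0.18 ± 0.11, adjusted p = 0.381, and with the block -0.18 ± 0.08, adjusted p = 0.0907). Slamf1, the founding member of the family, measured 104, 83.7 and 71.1 CPM in WT and 82.2, 82.3 and 58.0 CPM in Il21r-/- cells. WT was the higher on days 7 and 14 and about level on day 10, where Il21r-/- stood at 98.4% of WT. The log2 fold change of 0.21 ± 0.10 (adjusted p = 0.274) and, with the block, 0.22 ± 0.09 (adjusted p = 0.0659) was not called.

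**Figure D1:**
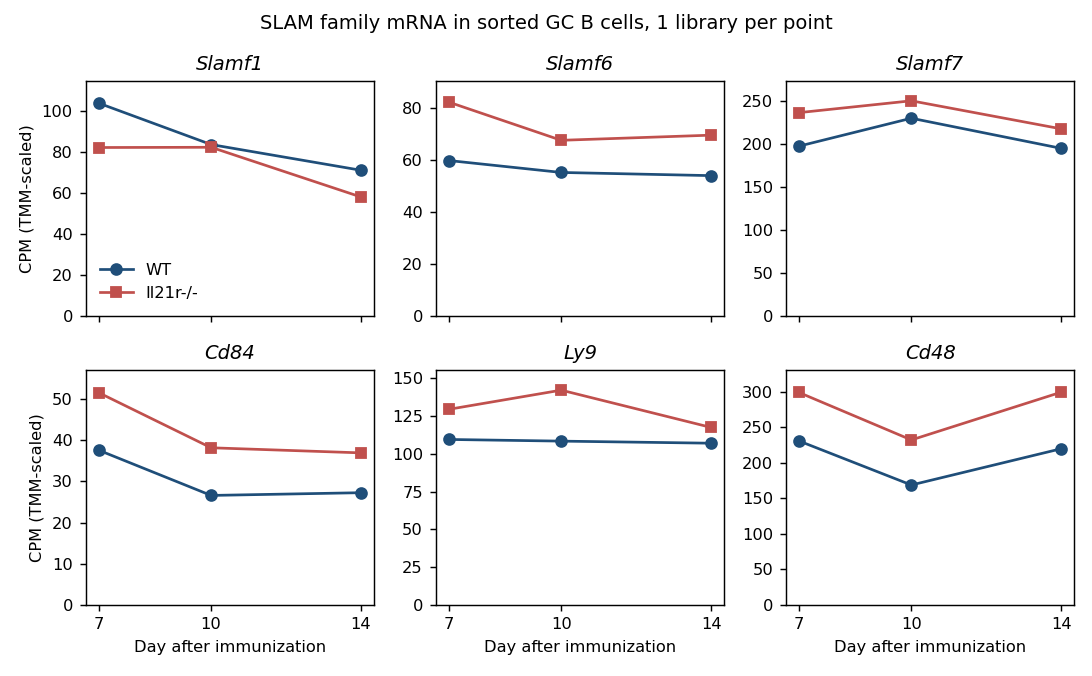
CPM (TMM-scaled, y axis from 0) of each SLAM family gene against day after immunization, with 1 library per point, circles for WT and squares for Il21r-/-. Il21r-/- lies above WT on all 3 days for 5 genes, and WT lies above Il21r-/- for Slamf1, by little on day 10.

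In all, 5 members were higher in Il21r-/- cells on each of the 3 days, a pattern found in 27.9% of all genes tested, and Slamf1 was higher in WT cells on each, as were 25.4%. Groups did not overlap for 3 of the 6 members (Slamf6, Ly9 and Cd48), all with Il21r-/- above, compared with 18.4% of genes tested in either direction and 10.0% with Il21r-/- above. The median log2 fold change was -0.32 over the 6 members and -0.01 over all genes tested. The directions on each day were kept when library sizes were left unscaled. The groups of Ly9 then overlapped, however, with 111.6 CPM in the Il21r-/- day 14 library and 111.9 CPM in the WT day 10 library. The calls under the block held for Slamf6, Cd84 and Cd48 when any 1 of the days was left out (adjusted p between 0.00217 and 0.0459, with 19.4%, 14.6% and 9.12% of all genes called without days 7, 10 and 14), whereas Ly9 lost its call without day 7, 10 or 14 (adjusted p of 0.0818, 0.202 and 0.0788). Slamf1 gained a call, higher in WT, without day 10 (log2 fold change 0.32, edgeR quasi-likelihood test, adjusted p = 0.0313). These fits without a day were chosen after the data were seen. Each has few libraries from which to estimate the spread, so the p-values lean on information shared across genes. With the linear term the outcome turned on the Il21r-/- day 10 library, since without it 4 members and 19.7% of all genes tested were called, Slamf1 as higher in WT (adjusted p = 0.0382) and Slamf6, Cd84 and Cd48 as higher in Il21r-/-.

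**Figure D2:**
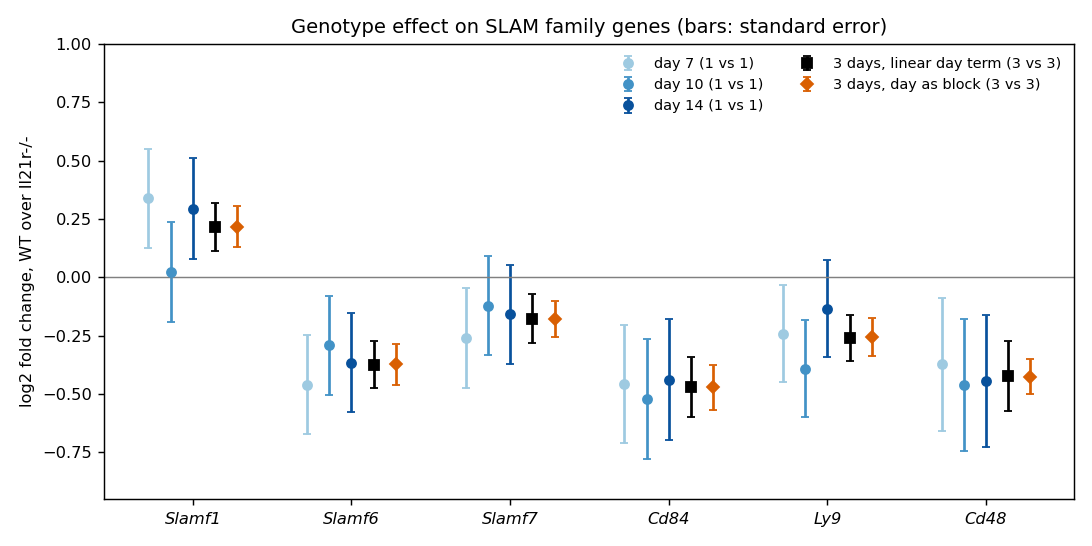
Log2 fold change of WT over Il21r-/- (y axis) for each SLAM family gene on each day and over the 3 days, with bars for standard errors. The estimates over 3 days are alike with a linear day term (squares) and with day as a block (diamonds), as for Cd48 at -0.42 and -0.43, but the bars are shorter with the block (0.15 and 0.08).

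On single days, where a genotype is 1 library and the spread is borrowed from the model over all 6, no member was called (edgeR likelihood ratio test), compared with 1.07% of genes tested on day 7, 3.10% on day 10 and 3.28% on day 14. The lowest unadjusted p was 0.0297 on day 7, for Slamf6 (log2 fold change -0.46 ± 0.21, adjusted p = 0.741). On day 10 it was 0.0425, for Cd84 (-0.52 ± 0.26, adjusted p = 0.428). On day 14 it was 0.0861, again for Slamf6 (-0.37 ± 0.21, adjusted p = 0.521). With the dispersion taken from the block model Cd48 was called on day 10 (adjusted p = 0.0435, with 7.47% of all genes called) and day 14 (adjusted p = 0.0448, with 9.59%). For Cd48 the daily log2 fold changes were -0.37, -0.46 and -0.45 and for Cd84 they were -0.46, -0.52 and -0.44 on the 3 days, each within 1 SE of the others. Slamf1 varied more, at 0.34, 0.02 and 0.29. A change of the genotype effect with day was called for no gene tested (0%, edgeR quasi-likelihood test, with 118 genes at an unadjusted p under 0.05 and 0 calls by DESeq2), and the lowest unadjusted p among the members was 0.666, for Ly9.

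Across days 7 to 14, taking both genotypes together, no member passed the test for a linear trend, compared with 4.43% of genes tested. Slamf1 was nearest, falling by 0.076 ± 0.018 (SE) log2 units per day (adjusted p = 0.053), and it was called by DESeq2's Wald test, as were 7.91% of all genes, and without the filter on low counts, as were 5.14%. Cd84 had a slope of -0.065 ± 0.023 per day (adjusted p = 0.128), with day 7 the highest in both genotypes. The slopes of Slamf6, Slamf7 and Ly9 were -0.027, -0.013 and -0.014, and that of Cd48 was 0 to 2 decimals in spite of its dip on day 10, which a straight line does not follow.

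The make-up of the SLAM family transcripts was described in the same libraries, without a test between genotypes. As a share of the RPKM summed over the 6 members, Slamf1 took 10.6%, 10.1% and 7.82% in WT and 6.84%, 7.88% and 5.13% in Il21r-/- cells on days 7, 10 and 14. Cd48 took 55.3%, 48.0% and 56.9% in WT and 58.6%, 52.3% and 62.3% in Il21r-/-. Thus on each day the share of Slamf1 was lower, and that of Cd48 higher, in the Il21r-/- library. Slamf7 took 13.6%, 18.8% and 14.5% in WT and 13.3%, 16.2% and 13.0% in Il21r-/-. Its share was thus lower in Il21r-/- on each day, although its CPM was higher. The share of Cd84 was higher in Il21r-/- on each day, and those of Slamf6 and Ly9 went both ways. These shares follow from the levels above and were not tested separately. Over the 6 libraries, the log2 CPM of Slamf6 and Cd84 had the highest Pearson correlation of the 15 pairs of members (r = 0.94), ahead of Slamf6 and Cd48 (0.82), Slamf7 and Ly9 (0.82) and Cd84 and Cd48 (0.80). Slamf1 had correlations between -0.40 and 0.14 with the others. These are descriptions over 6 libraries that share genotypes and days.

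The remaining SLAM family genes had few counts, and of 3 only Slamf9 passed the filter. Cd244a, which encodes the CD244 (2B4) receptor for CD48, had 9, 0 and 0 counts in WT and 3, 6 and 7 counts in Il21r-/- libraries, and a count of 0 allows a level of up to 0.122 CPM on day 10 and 0.141 CPM on day 14 in WT (3 counts, counting error only). Slamf8 had at most 5 counts in any library. Slamf9 was tested and had 62, 20 and 25 counts in WT and 68, 21 and 21 counts in Il21r-/- libraries, with a log2 fold change of -0.03 ± 0.42 (adjusted p = 0.976).

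Cd2, the receptor for CD48 that B cells also carry, measured 141, 72.4 and 63.8 CPM in WT and 188, 102 and 83.4 CPM in Il21r-/- cells. Il21r-/- was higher on each day, as it was for its ligand Cd48, while the day 7 libraries were the highest in both genotypes. Its log2 fold change was -0.43 ± 0.16 (adjusted p = 0.169) with the linear term and -0.43 ± 0.08 (adjusted p = 0.000191) with the block. Cd2 fell by 0.16 ± 0.03 log2 units per day (adjusted p = 0.0181), a call that was lost without either day 7 or either day 14 library (adjusted p between 0.0584 and 0.240).

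Of the adaptors that bind SLAM family tails, EAT-2 was expressed as transcript. A difference between genotypes was called with the linear term but not with the block over all days. The EAT-2 gene Sh2d1b1 measured 7.95, 9.80 and 16.5 CPM in WT and 3.71, 2.86 and 1.93 CPM in Il21r-/- cells. Every WT library was above every Il21r-/- library, and the gap was smallest on day 7 and largest on day 14. The log2 fold change over the 3 days was 1.97 ± 0.32 (adjusted p = 0.0105), so that Sh2d1b1 was higher in WT. With day as a block the estimate was the same but the call was lost (1.96 ± 0.45, adjusted p = 0.0657), as it was with the linear term when the Il21r-/- day 10 library was left out (adjusted p = 0.0589). Under the block it was called without day 7 (adjusted p = 0.000538), without day 14 (0.000201), by DESeq2 (0.00354) and without the filter on low counts, but not without day 10 (0.211), with DESeq2 size factors (0.0823) or with at least 10 counts in every library (0.0637). On day 14 the log2 fold change was 3.09 ± 0.57 (adjusted p = 4.13e-05), on day 10 it was 1.78 ± 0.56 (adjusted p = 0.0565) and on day 7 it was 1.10 ± 0.56 (adjusted p = 0.907). On day 10 it was called with DESeq2 size factors (0.0459), with DESeq2's Wald test (0.0317), with the linear day term (0.00115) and without any single library of another day (0.00124 to 0.0364), but not with the other filters on low counts (0.0573 and 0.0588) or the block dispersion (0.168). A change of this effect with day had an unadjusted p of 0.0017 and an adjusted p of 1. Its close homolog Sh2d1b2 had under 1 CPM in every library, and because the handling of reads that map to both is not stated, their split is uncertain. Sh2d1a, which encodes SAP, had 0 to 4 counts per library and was not tested.

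Genes for signaling proteins downstream of the receptors were also tested. Of 19 listed kinases, phosphatases and linkers, 17 passed the filter. None was called with the linear term (edgeR quasi-likelihood test), compared with 5.92% of all genes tested. An unadjusted p under 0.05 was found for 1 of the 17, compared with 21.4% of all genes tested. Their median log2 fold change was -0.01, as over all genes tested. With the block, 2 of the 17 were called, compared with 22.9% of all genes tested, and both were named after their values were seen. Fyn, the kinase that SAP brings to the receptors, was higher in Il21r-/- (log2 fold change -0.35 ± 0.09, adjusted p = 0.00384), and it measured 75.3, 70.5 and 53.1 CPM in WT against 83.4, 94.8 and 73.3 CPM in Il21r-/- cells. Plcg2, the phospholipase C of B cells, was higher in WT (0.21 ± 0.07, adjusted p = 0.0428). The call of Fyn was lost without day 10 or day 14 and that of Plcg2 without day 7 or day 14.

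**Figure D3:**
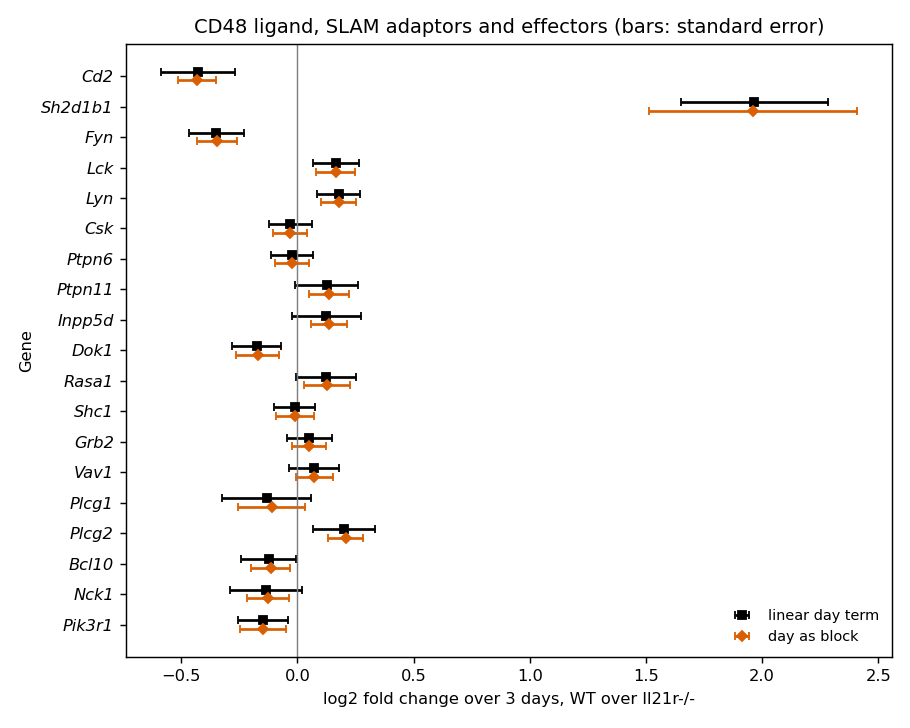
Log2 fold change over 3 days of WT over Il21r-/- (x axis) for the CD48 receptor gene Cd2, the EAT-2 gene Sh2d1b1 and 17 SLAM effector genes (y axis), with bars for standard errors. Sh2d1b1 stands apart at 1.97 (linear day term) and 1.96 (day as block), and the effectors lie between Fyn at -0.35 and Plcg2 at 0.20 with the linear term.

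Genes next to the SLAM cluster were compared to see whether the direction extended along the chromosome. From 500 kb before to 500 kb after the cluster, 24 other genes were tested. None was called with the linear term, against 5.92% of all genes. With the block 2 (8.3%) were called, against 22.9% of all genes. These were Ufc1, higher in Il21r-/- (log2 fold change -0.28 ± 0.09, adjusted p = 0.0238), and Igsf8, higher in WT (0.41 ± 0.14, adjusted p = 0.0334), both named after their values were seen. Ufc1 lost its call without day 7 or day 14 (adjusted p of 0.133 and 0.357) and Igsf8 without day 7, 10 or 14 (0.114, 0.218 and 0.0602), and DESeq2 with the block called neither (0.0747 and 0.156). The median log2 fold change of the 24 was -0.04, and 5 were higher in Il21r-/- on each day and 2 higher in WT. The nearest tested genes, Alyref2 on the side of Ly9 and Vangl2 on the side of Slamf6, had log2 fold changes of -0.02 (adjusted p = 0.972) and -0.49 (adjusted p = 0.332). No test compared members with neighbors.

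**Figure D4:**
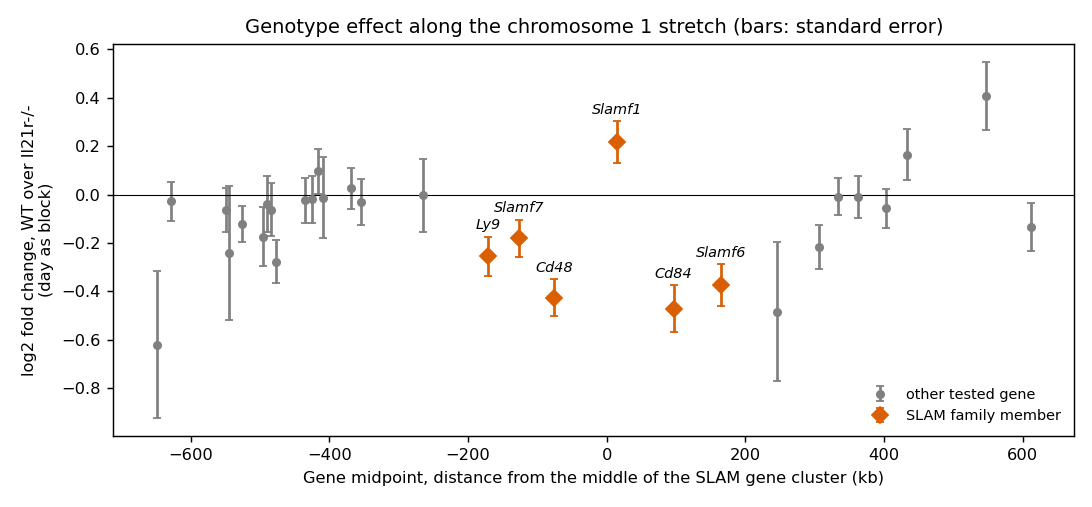
Log2 fold change over 3 days with day as a block (y axis, bars for standard errors) against the distance of each gene's midpoint from the middle of the SLAM gene cluster in kb (x axis). Of the 6 SLAM family genes (diamonds) 5 lie below 0 and Slamf1 above it, and 24 other tested genes (circles) have a median near 0.

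Some members overlap other annotated genes (GENCODE M21), and the library kit did not mark strand, so reads in shared stretches cannot be told apart. Ly9 overlaps Cd244a on the opposite strand, Slamf6 and Slamf7 each overlap an antisense gene, Slamf7 also holds a miRNA gene and Cd48 overlaps an unclassified transcript. No overlap was listed for Slamf1 or Cd84.

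The genes whose log2 CPM followed each member most closely over the 6 libraries were Nr3c1 (r = 0.997) and Mief1 (0.991) for Slamf1, Pgam2 and Tlcd2 (both 0.996) for Slamf6, Myof (0.981) and Zfp810 (0.972) for Slamf7, Cryl1 (0.997) and Aldoc (0.996) for Cd84, Ikbkb (0.993) and Zfp846 (0.992) for Ly9, and P2ry10 (0.991) and Ift52 (0.990) for Cd48. Nr3c1, the glucocorticoid receptor gene, was likewise highest in WT on day 7 (135 CPM) and lowest in Il21r-/- on day 14 (100.4 CPM). Ikbkb, a kinase of the NF-kB pathway, was higher in Il21r-/- on each day like Ly9, at 39.1, 39.6 and 38.3 CPM in WT and 49.9, 59.9 and 45.5 CPM in Il21r-/-. Many genes share such patterns over 6 libraries, since 166 exceeded r = 0.95 with Cd84, although only 7 did so with Slamf7. Pgam2, at 0.84 to 1.75 CPM, was near the filter on low counts, and Cryl1 ranged from 1.10 to 5.94 CPM. Counting error weighs more on such low levels.

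Il21r itself was lower in every Il21r-/- library, at 106, 128 and 113 CPM against 346, 263 and 247 CPM in WT (log2 fold change 1.29 ± 0.13, adjusted p = 0.00137), with reads remaining on the gene. For the marker lists that follow, the shares of all genes tested that were called are 5.92% with the linear term and 22.9% with the block, and 13.6% were called higher in Il21r-/- with the block. The 11 GC B cell markers were all tested, none was called with the linear term and 6 with the block (3 higher in each genotype), and their summed level was 8161 to 9457 CPM in WT and 8391 to 10305 CPM in Il21r-/- libraries. Other gene lists moved with genotype beside the members. Of 10 light zone (LZ) markers 5 were called higher in Il21r-/- cells (7 with the block) and none higher in WT, and their summed level was 1006 to 1316 CPM in WT and 1756 to 2082 CPM in Il21r-/-. Of 10 dark zone (DZ) markers none was called with the linear term (5 at an unadjusted p under 0.05) and 6 were called higher in WT with the block, with sums of 3163 to 3419 CPM in WT and 2740 to 3124 CPM in Il21r-/-. Of 7 markers of B cells outside the GC, Fcer2a, Ccr7 and S1pr1 were called higher in Il21r-/- and Ighm higher in WT, with sums of 547 to 1199 CPM in WT and 908 to 1390.4 CPM in Il21r-/-. Their part in the SLAM family differences was not tested, and in bulk samples fewer cells of a type and less RNA per cell cannot be told apart.

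T cells and NK cells also carry SLAM receptors. Of the 12 T cell markers 4 were tested and 1, Cd5, was called, higher in Il21r-/-, at 0.3 to 1.2 CPM in WT and 2.4 to 3.4 CPM in Il21r-/-. Among the untested markers, Cd3e and Cd8a had at most 2 counts in any library, Cd3g at most 7, Cd4 at most 12 and Cd28 at most 15. Cd3d had 6 to 8 counts in WT and 9 to 15 in Il21r-/- libraries, and Zap70 had 2 to 8 and 4 to 22, both higher in Il21r-/- on each day. Thy1 was tested and had 14 to 38 counts in WT and 22 to 67 in Il21r-/- (log2 fold change -0.63, unadjusted p = 0.041, adjusted p = 0.211). The summed level of 91.6 to 124 CPM in WT and 91.7 to 122 CPM in Il21r-/- was mostly Lck, which these B cell libraries held throughout. None of the 6 NK cell markers passed the filter and Ncr1 had 0 counts throughout, but their summed level was 0.488 to 1.25 CPM in WT and 1.65 to 2.01 CPM in Il21r-/-, so that the groups did not overlap. Most of this was Prf1, with 7 to 21 counts in WT and 26 to 34 in Il21r-/- libraries. Of 10 myeloid markers 5 were tested and Cd68 was called higher in Il21r-/- (with the block 2 were higher in Il21r-/- and 1 in WT), with sums of 79.5 to 91.0 CPM in WT and 65.1 to 89.3 CPM in Il21r-/-, mostly Flt3. Of 6 plasma cell markers, of which 4 were tested, Prdm1 was called higher in WT and Xbp1 higher in Il21r-/- (with the block 1 and 3), and the sums were 2524 to 2739 CPM in WT and 2774 to 3621 CPM in Il21r-/-, mostly Jchain. Whether these cells contributed to the members' levels was not tested.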

How the data were processed

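RNA from sorted GC B cells was made into TruSeq RNA v2 libraries, which do not mark strand, and sequenced single-end. Per the study's methods, the authors mapped reads to mm10 with Rsubread, pooled technical replicates and counted reads per gene with featureCounts (RefSeq annotation). CASAVA 1.8.2 is named in the submitters' processing notes. The deposited values are raw counts per Entrez gene with a gene length. Settings for strand and multiple mapping are not given in the sources used here. Symbols from RefSeq and GENCODE tables were found for all but 1886 of 27179 genes, which held 1.57% to 2.24% of counts.

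Here, edgeR 4.0.16 (R 4.3.3) with TMM scaling was fitted to 11005 genes (average log2 CPM of 0 or more, leaving out Y-linked, Xist and immunoglobulin variable genes). Quasi-likelihood tests used genotype and a linear day term over 6 libraries, likelihood ratio tests gave effects on single days, and p-values were adjusted by Benjamini-Hochberg over all genes tested, with 0.05 as threshold. The common biological coefficient of variation was 13.1%, and 8.89% with day as a block. Around their genotype's mean, libraries of the same day deviated together (r = 0.64, 0.413 and 0.645 on days 7, 10 and 14). A change with day shared by both genotypes also gives such values, so they do not show pairing beyond a day trend. The block value is given beside a result it changes. CPM and RPKM used TMM-scaled library sizes, and correlations used log2 CPM with a prior count of 2. The models were tested on simulated data. The simulated data held no effect of day, so they cannot decide between the linear term and the block. Alternatives were DESeq2 1.42.0, its size factors, other filters, day as a block, other dispersions and leaving out each library.

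Members and lists were chosen with earlier results of these data known. Named genes were the members, the other SLAM family genes, Cd2, Il21r, adaptors, and effectors or neighbors called over 3 days. Also named were the nearest tested neighbor on each side, the 2 genes most correlated with each member, and markers that bear on a member. Others are said to have been named after their values were seen. Intervals and floors cover counting error only. The authors' files for single libraries held the same counts as the joint table. A marker of B cells outside the GC is not reported here and was left out of its list.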

Additional observations from a re-analysis of the deposited data

How the results depend on the processing

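Over the 3 days each member kept its direction under all 19 alternatives, with log2 fold changes from -0.55 to -0.38 for Cd84, -0.43 to -0.29 for Slamf6, -0.56 to -0.30 for Cd48, -0.32 to -0.18 for Ly9, -0.26 to -0.10 for Slamf7 and 0.16 to 0.32 for Slamf1, while the calls depended on how day was modeled. The number of members called was 0 with the linear day term, 1 without the filter on low counts, 2 with DESeq2's Wald test and 0 to 4 without single libraries. With day as a block, 4 were called, and under changes to the block chosen after seeing the data 3 were called without day 7, 4 without day 10, 3 without day 14, 5 with DESeq2 size factors and 4 with DESeq2, without a filter or with at least 10 counts in every library. The number of genes called, 651 with the linear term, was 991 without the filter, 2519 with day as a block (pairing by day) and 132 (without WT day 14) to 2165 (without Il21r-/- day 10) without single libraries. Under the block it was 2137, 1611 and 1004 without days 7, 10 and 14, 2809 without the filter, 2465 with at least 10 counts in every library, 2654 with DESeq2 size factors and 1786 with DESeq2. The cause was not tested, but the block has a smaller coefficient of variation.

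On day 7, 118 genes were called, 303 with the block dispersion, 32 by DESeq2 and 104 to 220 without single libraries. On day 10, 341 were called, 722 with the linear term (2 members, Cd84 and Cd48), 822 with the block dispersion (1 member, Cd48) and 132 by DESeq2. On day 14, 361 were called, 1055 with the block dispersion (1 member, Cd48), 93 by DESeq2 and 341 to 704 without single libraries. The day trend was called for 488 genes, 869 without the filter and 870 by DESeq2 (each with 1 member, Slamf1), and 0 (without WT day 7) to 2177 without single libraries (0 to 2 members). The slope of Cd48, near 0, turned to 0.001 with DESeq2 size factors and with DESeq2 and ranged from -0.023 to 0.026 without single libraries, and that of Ly9 from -0.020 to 0.0016. Slamf9 had log2 fold changes that ranged from -0.42 to 0.58 without single libraries and was 0.26 under the block without day 7, 0.019 under the block with DESeq2 and 0.012 with DESeq2. The difference in day trend between genotypes was called for 0 to 12 genes without single libraries, and its sign for the members did not hold there, with ranges of -0.067 to 0.044 for Slamf1, -0.036 to 0.086 for Slamf6, -0.033 to 0.093 for Slamf7, -0.10 to 0.092 for Cd84, -0.039 to 0.059 for Ly9 and -0.16 to 0.13 for Cd48. With 1 library for each genotype on a day, an effect on a single day has no replicate, and Cd244a, Slamf8 and Sh2d1a had too few counts to be tested, whereas members had 582 or more. RPKM without TMM differed by less than the SD.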
